A study of Mus musculus with 6 samples.

Results

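The heart transcription factor genes are 10 genes that build and maintain the cardiac program: Nkx2-5, Gata4, Gata5, Gata6, Tbx20, Mef2c, Hand1, Hand2, Irx4 and Myocd. They were taken by gene name from the 56359 rows of a deposited table of TPM, transcript abundance scaled for gene length and library size, and each name matched a single row with an Ensembl identifier. RNA sequencing had been done on embryos of the C57BL/6 mouse strain at embryonic day 12, in 3 Tmem216-/- samples and 3 wild type samples. Tmem216 encodes a membrane protein of the transition zone at the base of the cilium. The labels give neither the deleted part of the gene nor how the line was made, and they do not say whether a sample is 1 embryo, whether embryos were pooled, or which parts of the embryo were kept. The p values below therefore rest on sample-to-sample spread alone, of which some may be technical.

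The vertebrate heart forms from lateral mesoderm under a set of transcription factors that bind side by side at the enhancers of muscle genes and regulate each other. NKX2-5 (a homeodomain protein), GATA4, GATA5 and GATA6 (zinc finger proteins), TBX20 (a T-box protein) and MEF2C (a MADS-box protein) act with the bHLH proteins HAND1 and HAND2, the ventricular Iroquois factor IRX4 and myocardin, the coactivator of serum response factor encoded by Myocd. Hardly any of these genes is used by the heart alone. The GATA factors are also active in gut endoderm, liver mesenchyme, gonad and mesothelium, Mef2c in skeletal muscle, neurons and endothelium, and Hand2 in limb buds, pharyngeal arches and sympathetic neurons.

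Marker levels varied between samples within both groups. Over the 16411 genes that reached 1 TPM in 3 or more samples and were tested, log2(TPM + 1) correlated between 0.934 and 0.975 over sample pairs. Each column of TPM sums to 1000000, so read depth cannot be recovered from the values. Tmem216 itself was 2.25, 0.51 and 1.39 TPM in Tmem216-/- and 31.0, 30.7 and 17.4 TPM in wild type (replicates 1, 2 and 3). Alb, the albumin gene that marks liver, was 198, 15.3 and 16.4 TPM in Tmem216-/- and 470, 514 and 18.4 TPM in wild type, so its level varied widely within both groups. The 20 genes of a heart muscle list (contractile proteins, natriuretic peptides and calcium handling) summed to 1526, 3436 and 2247 TPM in Tmem216-/- and 186, 319 and 254 TPM in wild type. Myl7, the atrial myosin light chain that marks embryonic heart muscle, was 1.91, 4.91 and 2.04 TPM in wild type. The labels name the embryo as the source, and in wild type some heart muscle genes were close to 0 while others were not. Nppb, a natriuretic peptide gene, was 0.36, 0.22 and 0.11 TPM in wild type, whereas Tnnt2, the cardiac troponin T gene, was 15.2, 24.4 and 17.4 TPM there. The skeletal muscle gene Myog was 29.5, 57.5 and 61.7 TPM in the same samples. Which tissue the Tnnt2 RNA came from was not tested. In such bulk RNA, fewer cells of a type and less RNA per cell cannot be told apart.

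No heart transcription factor gene passed the test, although for 5 of the 10 the lowest Tmem216-/- value exceeded the highest wild type value. With limma on log2(TPM + 1), 0 of the 10 had a Benjamini-Hochberg adjusted p under 0.05, against 0.0975% of all tested genes called higher, and 4 had an unadjusted p under 0.05, all higher, against 2.24% of all tested genes that were higher at that level and 4.46% in either direction. The same 4.46% is the share to set beside the unadjusted counts of the gene lists below. The 5 genes whose groups do not overlap are Nkx2-5, Tbx20, Gata4, Gata6 and Myocd; among all tested genes 4.75% had groups that do not overlap and were higher. In 0 of the 10 were the groups apart in the other direction, against 4.83% of all tested genes. The median log2 fold change of the 10 was 0.68, beside -0.01 over all genes tested, with 8 above 0 and 2 below. All 10 met the filter of 1 TPM in 3 samples, and Tbx20 met it through its Tmem216-/- samples alone, so the count and the median are descriptions. The exact two-sided permutation test gave p = 0.1 for each of the 5 genes, which is the smallest value that 3 samples against 3 can give.

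**Figure D1:**
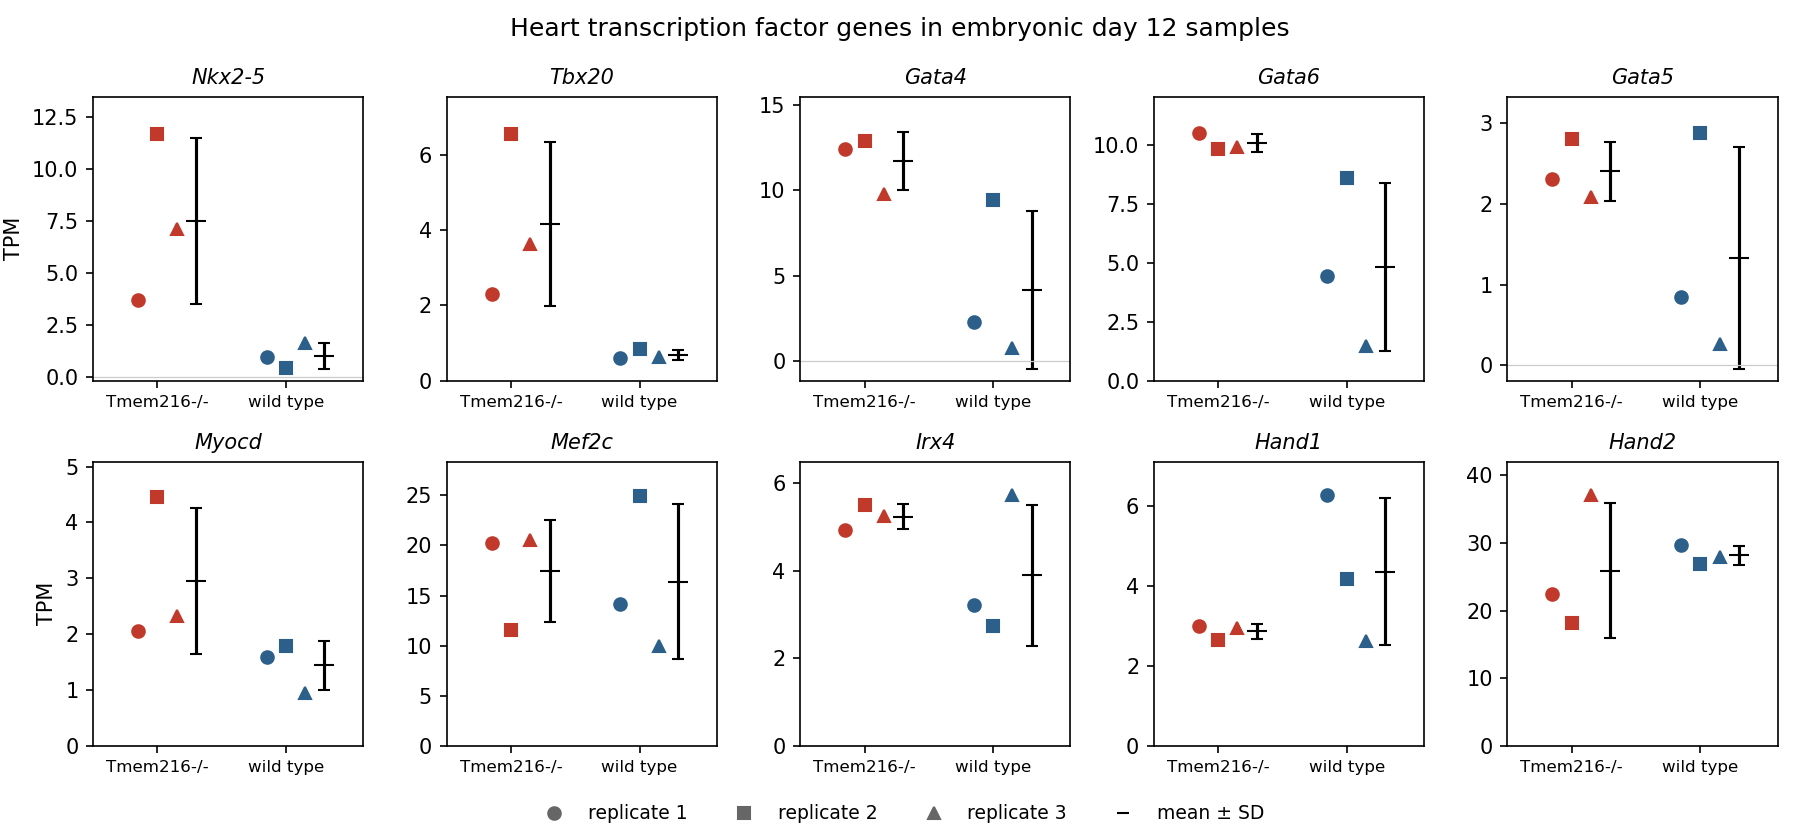
Level of each heart transcription factor gene in TPM (vertical axes, linear, a separate scale for each gene) in the 3 Tmem216-/- samples (red, left) and the 3 wild type samples (blue, right); marker shapes give the replicate and black bars the mean ± SD. In Nkx2-5 and Tbx20 the red points stand above and wide apart, in Gata4, Gata5 and Gata6 the blue points are the scattered ones, and in Mef2c, Irx4, Hand1 and Hand2 the groups overlap.

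Nkx2-5 and Tbx20 showed the largest ratios of the group means. Nkx2-5, among the earliest genes switched on in cardiac progenitors and needed for looping and chamber growth of the mouse heart (ENSMUSG00000015579, minus strand of chromosome 17, 26838664 to 26845009 in mm10), was 3.73, 11.7 and 7.12 TPM in Tmem216-/- and 0.99, 0.43 and 1.67 TPM in wild type. The lowest Tmem216-/- value was above the highest wild type value, and Tmem216-/- replicate 2 was the highest sample. The means were 7.51 ± 3.99 and 1.03 ± 0.62 TPM (SD, n = 3 each), a ratio of 7.29, and the log2 fold change was 2.00 (SE 0.40, 95% interval 1.04 to 2.96, limma adjusted p = 0.315). Leaving out each sample in turn gave log2 fold changes from 1.66 to 2.37, and over the alternative settings in which the gene was tested the adjusted p ran from 0.192 to 1.0.

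Tbx20, a T-box repressor and activator of chamber muscle that is also active in hindbrain motor neurons (ENSMUSG00000031965, minus strand of chromosome 9, 24718138 to 24774303), was 2.29, 6.56 and 3.64 TPM in Tmem216-/- and 0.59, 0.83 and 0.64 TPM in wild type. The groups do not overlap, and the Tmem216-/- samples fell in the same order as for Nkx2-5. Its means were 4.16 ± 2.18 and 0.69 ± 0.13 TPM, a ratio of 6.06, and its log2 fold change was 1.53 (SE 0.31, 95% interval 0.78 to 2.28, limma adjusted p = 0.338). The log2 fold changes understate such low genes, since 1 TPM is added to every value; with 0.1 TPM added they were 2.77 for Nkx2-5 and 2.32 for Tbx20.

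The 250 bases before the RefSeq start (build GRCm38.p6) are shown for Nkx2-5 and Tbx20, which had the largest ratios of the group means. They are also shown for Hand2, the most abundant of the 10, whose groups overlap. RefSeq promoter windows of 6 of the 10 genes were searched. That number does not say that the other genes lack a RefSeq promoter. Capitals mark matches, on either strand, to the NK2 homeobox core AAGTG, the GATA motif AGATAA, the T-box core AGGTGT, the E-box CANNTG bound by bHLH proteins, and TATAAA.
Nkx2-5, chr17:26841566-26841815, minus strand: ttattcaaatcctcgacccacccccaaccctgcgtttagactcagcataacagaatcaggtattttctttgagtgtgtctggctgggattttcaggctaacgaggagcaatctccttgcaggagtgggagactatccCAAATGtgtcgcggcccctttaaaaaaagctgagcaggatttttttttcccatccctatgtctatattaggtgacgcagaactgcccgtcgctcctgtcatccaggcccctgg
Tbx20, chr9:24774304-24774553, minus strand: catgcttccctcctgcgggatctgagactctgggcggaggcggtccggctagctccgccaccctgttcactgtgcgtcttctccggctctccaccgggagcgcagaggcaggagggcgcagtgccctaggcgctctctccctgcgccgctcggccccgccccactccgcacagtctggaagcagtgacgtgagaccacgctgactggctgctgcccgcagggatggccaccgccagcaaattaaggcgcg
Hand2, chr8:57320733-57320982, plus strand: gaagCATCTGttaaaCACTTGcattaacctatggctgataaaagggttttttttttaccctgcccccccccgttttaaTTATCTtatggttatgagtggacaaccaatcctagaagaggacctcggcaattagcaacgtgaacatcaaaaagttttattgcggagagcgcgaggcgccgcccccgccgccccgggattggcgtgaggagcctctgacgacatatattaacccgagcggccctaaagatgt
The Nkx2-5 window held 1 E-box, at -113 to -108 from the start, and no match to the other 4 motifs. This window lies inside the gene span given above (26838664 to 26845009), so it does not cover the bases before the start in that annotation. The Tbx20 window held no match to any of the 5. The Hand2 window held 1 GATA match at -172 to -167, 2 E-boxes and 1 NK2 core, and the NK2 core at -235 to -231 lies inside the E-box at -235 to -230. Of all 32851 promoter windows of the same length, 40.7% held the NK2 core, 9.99% the GATA motif, 11.8% the T-box core, 66.2% an E-box and 12.4% TATAAA. A match says that the letters are present, and a window with none says nothing about binding elsewhere.

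Gata4, Gata5 and Gata6 varied together, and here the spread lay in the wild type samples. Gata4, a zinc finger factor needed for heart tube formation and also expressed in liver mesenchyme and gonad (ENSMUSG00000021944, minus strand of chromosome 14, 63198922 to 63271692), was 12.4, 12.9 and 9.76 TPM in Tmem216-/- and 2.29, 9.42 and 0.76 TPM in wild type. The groups do not overlap, but wild type replicate 2 nearly reached Tmem216-/- replicate 3. The means were 11.7 ± 1.70 and 4.16 ± 4.62 TPM, and the log2 fold change was 1.69 (SE 0.60, 95% interval 0.25 to 3.12, limma adjusted p = 0.983). Leaving out wild type replicate 2 gave 2.39 (limma adjusted p = 0.124), and leaving out replicate 3 gave 1.11 (adjusted p = 0.657).

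Gata6, which acts beside Gata4 in heart and gut (ENSMUSG00000005836, plus strand of chromosome 18, 11052064 to 11085635), was 10.5, 9.83 and 9.92 TPM in Tmem216-/- and 4.43, 8.58 and 1.46 TPM in wild type. The 3 Tmem216-/- values lay within 1.07 times of each other, while the wild type values ran over a 5.88-fold range, and the groups do not overlap. The means were 10.1 ± 0.36 and 4.82 ± 3.58 TPM, with a log2 fold change of 1.14 (SE 0.46, 95% interval 0.04 to 2.23, limma adjusted p = 0.983). Leaving out wild type replicate 3 gave 0.62, and leaving out replicate 2 gave 1.6. Gata6 is overlapped on the opposite strand by 1010001N08Rik, which had 4.65, 5.53 and 4.08 TPM in Tmem216-/- and 3.1, 7.51 and 0.67 TPM in wild type. The labels do not say that the library kept the strand, so reads of the overlapped part may be shared.

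Gata5, active in endocardium, epicardium and gut (ENSMUSG00000015627, minus strand of chromosome 2, 180325133 to 180334699), was 2.31, 2.8 and 2.09 TPM in Tmem216-/- and 0.85, 2.88 and 0.26 TPM in wild type. Wild type replicate 2 was the highest of all 6 samples, so the groups overlap. The log2 fold change was 0.70 (SE 0.41, 95% interval -0.27 to 1.67, limma adjusted p = 0.983), and it was 1.15 without wild type replicate 2 and 0.34 without wild type replicate 3. Summed over the 3 GATA genes, the level was 25.2, 25.5 and 21.8 TPM in Tmem216-/- and 7.57, 20.9 and 2.48 TPM in wild type. In all 3 genes wild type replicate 2 was the highest of its group and replicate 3 the lowest, a pattern that Nkx2-5 does not share, since wild type replicate 2 held its lowest value.

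Some mesothelium markers and the summed liver markers had the same order as the GATA genes over the wild type samples. Over the Tmem216-/- samples Upk3b, Wt1 and the summed liver markers did not have the order of the GATA sum. The summed gonad markers and the summed gut and lung endoderm markers had its order in neither group. Upk3b, a marker of mesothelium, the lining of the body cavities and of the heart surface, was 5.56, 6.16 and 8.11 TPM in Tmem216-/- and 2.89, 5 and 0.52 TPM in wild type, in the same order over the wild type samples as the GATA genes but not over the Tmem216-/- samples, where its highest value stood beside the lowest GATA sum. Wt1, a factor of mesothelium and gonad, was 14.4, 5.19 and 8.18 TPM in Tmem216-/- and 4.14, 15.2 and 3.21 TPM in wild type. Of 8 epicardium and mesothelium markers 7 were tested, all 7 had a log2 fold change above 0, and the median was 0.44. In limma 0 passed, and 3 had an unadjusted p under 0.05, against 4.46% of all tested genes. Their summed level ran from 79.6 to 87.0 TPM in Tmem216-/- and from 48.5 to 90.8 TPM in wild type. The 9 liver markers were all lower, with 0 passing in limma and 0 at an unadjusted p under 0.05. They summed to 1087, 125 and 159 TPM in Tmem216-/- and 2177, 2587 and 222 TPM in wild type. Of 5 gonad markers 2 were tested and 0 passed in limma, 0 at an unadjusted p under 0.05, with sums from 56.6 to 70.5 TPM in Tmem216-/- and from 61.2 to 64.1 TPM in wild type. Of 10 gut and lung endoderm markers 6 were tested and 0 passed, again 0 at an unadjusted p under 0.05, with sums from 36.8 to 43.3 TPM in Tmem216-/- and from 40.6 to 52.0 TPM in wild type. The part of these tissues in the GATA levels was not tested.

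**Figure D2:**
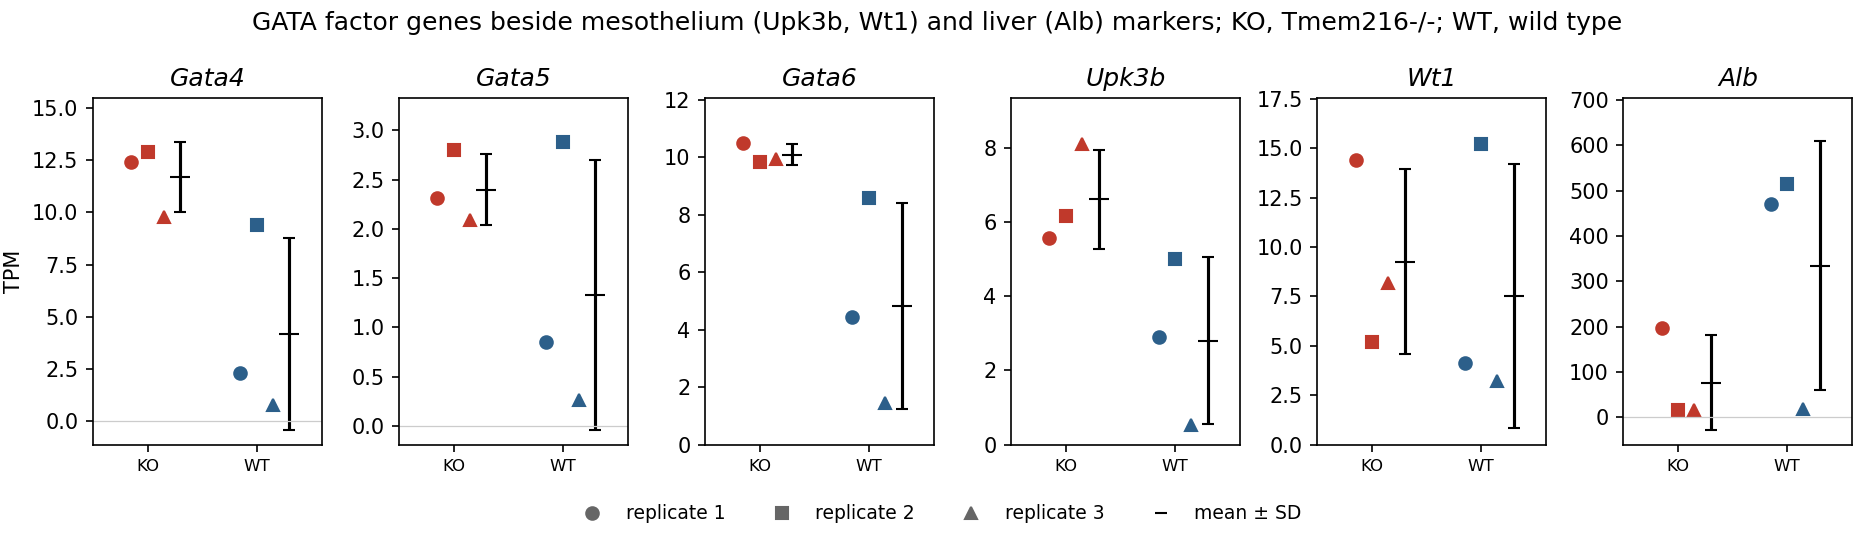
Levels in TPM (vertical axes, linear, a separate scale for each gene) of Gata4, Gata5 and Gata6 beside the mesothelium markers Upk3b and Wt1 and the liver marker Alb, in Tmem216-/- (red, left) and wild type (blue, right) samples, with mean ± SD in black. Wild type replicate 2 (square) is the highest and replicate 3 (triangle) the lowest wild type sample in all 6 genes; Upk3b has no overlap between the groups, with 5.56 TPM as its lowest Tmem216-/- value and 5 TPM as its highest wild type value.

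Mef2c and Myocd, partners of the muscle program, differed in pattern. Myocd, a coactivator of serum response factor in heart and smooth muscle (ENSMUSG00000020542, minus strand of chromosome 11, 65176561 to 65269989), was 2.06, 4.45 and 2.33 TPM in Tmem216-/- and 1.59, 1.79 and 0.95 TPM in wild type. The groups do not overlap, and the Tmem216-/- samples fell in the same order as for Nkx2-5 and Tbx20, with replicate 2 highest. The means were 2.95 ± 1.31 and 1.44 ± 0.44 TPM, and the log2 fold change was 0.66 (SE 0.28, 95% interval -0.01 to 1.33, limma adjusted p = 0.983). Smooth muscle genes stood beside it: of 7 tested, 6 had a log2 fold change above 0, and the median was 0.52. In 4 the groups do not overlap and were higher, against 4.75% of all tested genes, and 0 passed limma (4 at an unadjusted p under 0.05). Cnn1, the smooth muscle calponin that the embryonic heart also expresses, was 15.1, 26.2 and 19.6 TPM in Tmem216-/- and 3.66, 3.91 and 0.85 TPM in wild type. Tagln, which encodes the actin-binding protein SM22, was 54.9, 77.9 and 54.7 TPM in Tmem216-/- and 30.4, 28.7 and 23.0 TPM in wild type. In the summed smooth muscle list the level was 230 to 275 TPM in Tmem216-/- and 123 to 158 TPM in wild type; whether it bears on Myocd was not tested.

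Mef2c, needed for the right ventricle and outflow tract in mouse (ENSMUSG00000005583, plus strand of chromosome 13, 83504034 to 83667080), was 20.3, 11.5 and 20.5 TPM in Tmem216-/- and 14.2, 25.0 and 9.99 TPM in wild type. The groups overlap across nearly their whole range, and Tmem216-/- replicate 2, the highest sample for Nkx2-5, Tbx20 and Myocd, was the lowest of its group. The log2 fold change was 0.14 (SE 0.36, 95% interval -0.72 to 0.99, limma adjusted p = 0.983), and without wild type replicate 3 its sign turned (-0.15). Myog, the myogenin gene of skeletal muscle, another tissue that expresses Mef2c, was also lowest of the Tmem216-/- group in replicate 2 (39.6 TPM, against 69.1 and 65.4 TPM in replicates 1 and 3). In wild type Myog was 29.5, 57.5 and 61.7 TPM, highest in replicate 3, where Mef2c was lowest. The part of skeletal muscle in the Mef2c level was not tested. The 8 skeletal muscle markers, 7 of them tested, summed to 224, 117 and 200 TPM in Tmem216-/- and 97.7, 185 and 166 TPM in wild type, with 0 passing in limma and 0 at an unadjusted p under 0.05.

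Irx4, Hand1 and Hand2, factors of the ventricles, overlapped between the groups. Irx4, an Iroquois factor restricted to the ventricles within the heart (ENSMUSG00000021604, plus strand of chromosome 13, 73260479 to 73269608), was 4.93, 5.5 and 5.25 TPM in Tmem216-/- and 3.22, 2.73 and 5.72 TPM in wild type. Wild type replicate 3 held the highest of the 6 values, and the log2 fold change was 0.40 (SE 0.24, 95% interval -0.18 to 0.98, limma adjusted p = 0.983). Its level in wild type was above that of Nkx2-5 in each sample, and the same held for Irx1, Irx2, Irx3 and Irx5, relatives used in the neural tube: Irx1 was 49.9, 64.3 and 68.6 TPM in Tmem216-/- and 34.7, 32.5 and 62.7 TPM in wild type, with wild type replicate 3 again the highest of its group.

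Hand1, a bHLH factor of the left ventricle, lateral mesoderm and trophoblast (ENSMUSG00000037335, minus strand of chromosome 11, 57828705 to 57832818), was 3, 2.65 and 2.96 TPM in Tmem216-/- and 6.28, 4.19 and 2.62 TPM in wild type. The Tmem216-/- samples lay close together and just above the lowest wild type sample. The log2 fold change was -0.41 (SE 0.27, 95% interval -1.05 to 0.22, limma adjusted p = 0.983), 1 of the 2 below 0. Of 6 trophoblast markers Prl2c2 and Tpbpa were listed at 0 in all 6 samples and 1 reached the filter, and the list summed to between 2.21 and 3.75 TPM in Tmem216-/- and between 1.83 and 2.79 TPM in wild type.

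Hand2, the bHLH factor of the right ventricle, limb bud and pharyngeal arches (ENSMUSG00000038193, plus strand of chromosome 8, 57320983 to 57324633), was 22.5, 18.1 and 37.1 TPM in Tmem216-/- and 29.7, 26.9 and 28.0 TPM in wild type. The wild type values fell inside the wider Tmem216-/- range. The log2 fold change was -0.18 (SE 0.25, 95% interval -0.76 to 0.41, limma adjusted p = 0.983), and without Tmem216-/- replicate 2 it was 0.04. Hand2 is overlapped on the opposite strand by Hand2os1, which was 12.6, 10.4 and 17.8 TPM in Tmem216-/- and 9.71, 15.01 and 10.02 TPM in wild type, with the same limit on strand. Hoxd13, a limb marker, was also highest of the Tmem216-/- group in replicate 3 and lowest in replicate 2 (10.3, 2.08 and 29.4 TPM, against 32.4, 22.8 and 8.56 TPM in wild type). The wild type orders differed, with Hoxd13 lowest in replicate 3 and Hand2 lowest in replicate 2. The 6 limb markers summed to 53.2, 41.0 and 81.7 TPM in Tmem216-/- and 123, 86.4 and 72.2 TPM in wild type. In limma 0 passed, and 2 had an unadjusted p under 0.05, against 4.46% of all tested genes. The part of limb tissue in the Hand2 level was not tested.

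**Figure D3:**
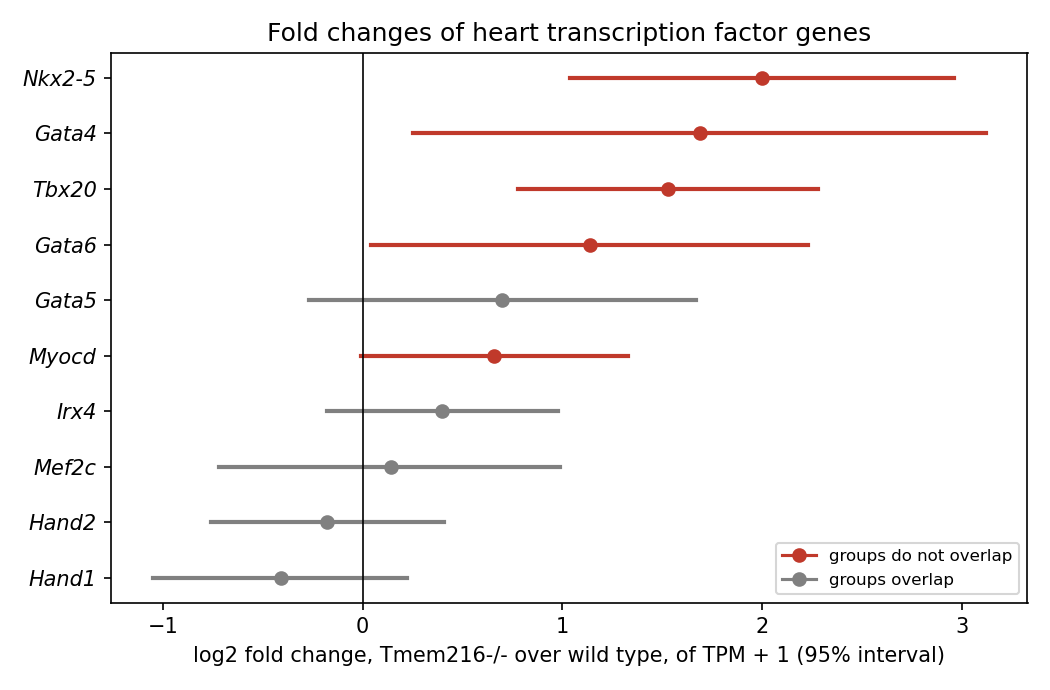
Log2 fold change of TPM + 1, Tmem216-/- over wild type, with the 95% interval from limma for each heart transcription factor gene; red marks genes whose groups do not overlap and grey those whose groups overlap. Nkx2-5, at 2.00, lies farthest to the right, the intervals of Nkx2-5, Tbx20, Gata4 and Gata6 lie above 0, and that of Myocd starts at -0.01.

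TPM values are scaled for gene length, so levels can be ordered between genes. In Tmem216-/- the order of the mean levels was Hand2 (25.9 TPM), Mef2c (17.4), Gata4 (11.7), Gata6 (10.1), Nkx2-5 (7.51), Irx4 (5.23), Tbx20 (4.16), Myocd (2.95), Hand1 (2.87) and Gata5 (2.40 TPM), and the sample ranges of all neighbours in this order overlapped. In wild type it was Hand2 (28.2 TPM), Mef2c (16.4), Gata6 (4.82), Hand1 (4.36), Gata4 (4.16), Irx4 (3.89), Myocd (1.44), Gata5 (1.33), Nkx2-5 (1.03) and Tbx20 (0.69 TPM). There the ranges of Hand2 and Mef2c, of Mef2c and Gata6, and of Irx4 and Myocd did not overlap, and all other neighbours did. Nkx2-5 stood above Irx4, Myocd, Hand1 and Gata5 by mean level in Tmem216-/- and below all 4 in wild type, while Hand2 and Mef2c led in both groups. The summed TPM of the 10 genes was 84.0, 86.1 and 101 in Tmem216-/- and 64.1, 82.7 and 52.0 in wild type.

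Set against heart muscle, Nkx2-5 and Tbx20 kept a near-constant proportion to Myl7 among the Tmem216-/- samples, a measure chosen after the values were seen. Per 1000 TPM of Myl7, Nkx2-5 had 24.8, 26.8 and 26.4 TPM in Tmem216-/- and 518, 87.6 and 819 TPM in wild type. Tbx20 had 15.2, 15 and 13.5 TPM per 1000 TPM of Myl7 in Tmem216-/- and 309, 169 and 314 TPM in wild type. Within Tmem216-/- the highest of these proportions was 1.08 times the lowest for Nkx2-5 and 1.13 times for Tbx20. For the other 8 genes it was 1.58 times (Myocd) to 5.09 times (Mef2c), with 2.78 for Gata4 and 3.09 for Gata6. Myl7 itself was 151, 436 and 270 TPM in these samples. Against Myh6, the cardiac alpha myosin heavy chain, the spread was 1.71 times for Nkx2-5 and 1.57 for Tbx20, with 1.30 for Myocd the smallest of the 10, so the order of the genes depends on the muscle gene taken. In wild type, where Myl7 was under 5 TPM, all 10 genes had more TPM per 1000 TPM of Myl7 than in any Tmem216-/- sample. That reflects the divisor: the ratio of the group means was 96.7 for Myl7 and at most 7.29 (Nkx2-5) among the 10.

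**Figure D4:**
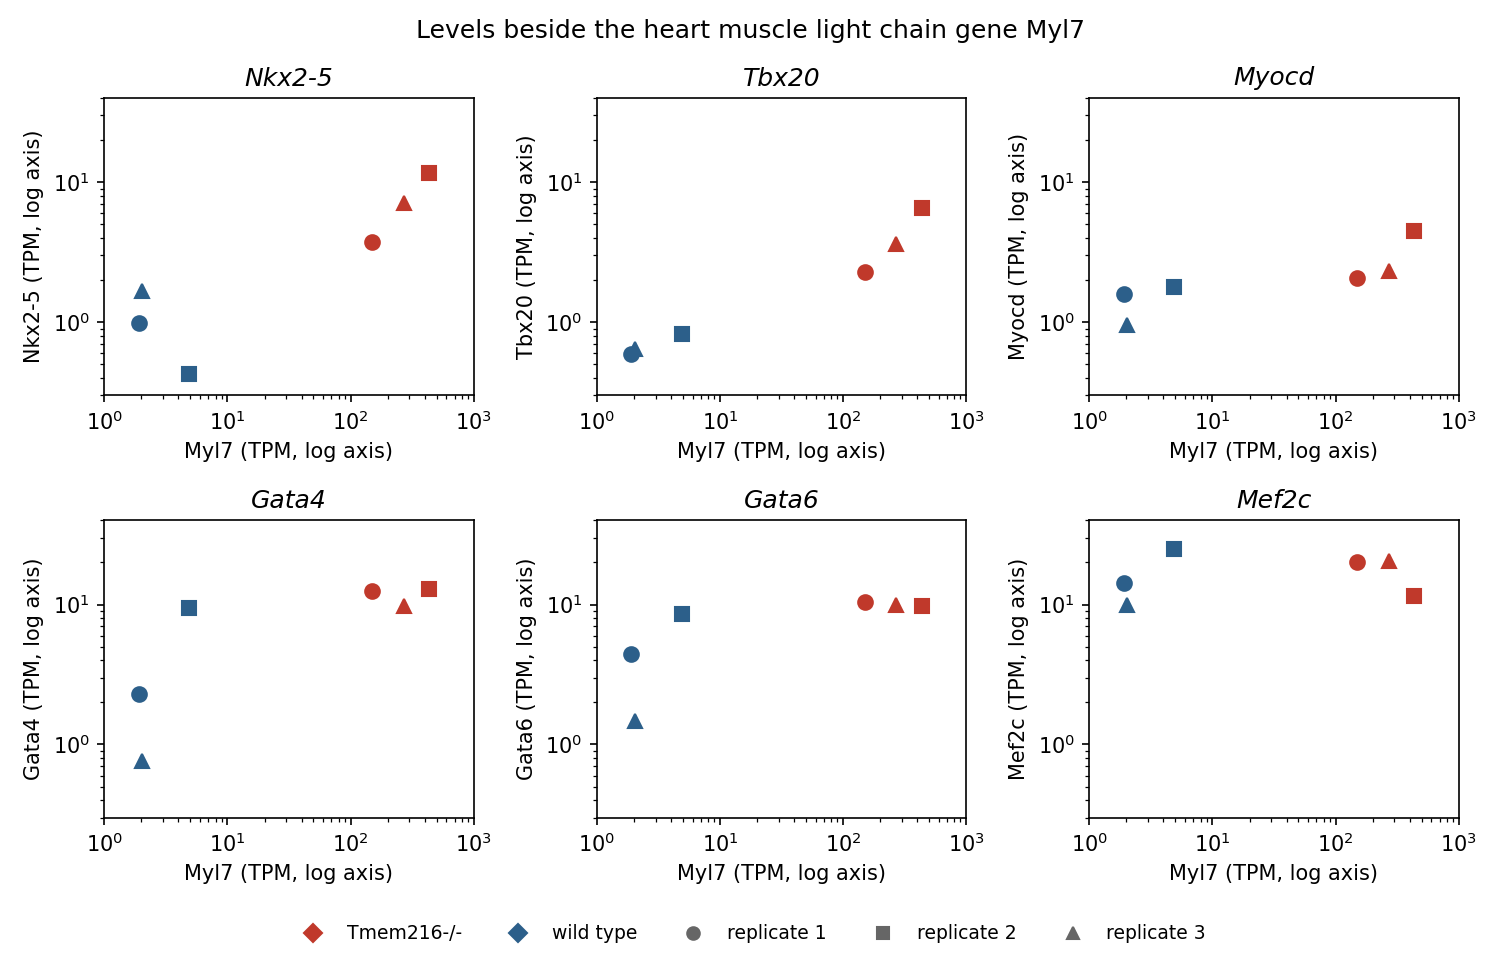
Level of Nkx2-5, Tbx20, Myocd, Gata4, Gata6 and Mef2c (vertical log axes, TPM) against Myl7 (horizontal log axes, TPM) in the 3 Tmem216-/- samples (red) and the 3 wild type samples (blue), 1 point for each sample. Among the red points Nkx2-5, Tbx20 and Myocd increase along with Myl7 from 151 to 436 TPM. Gata4 and Gata6 stay within 9.76 to 12.9 TPM, and Mef2c is lowest where Myl7 is highest.

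Most of the heart muscle genes, a class that these factors are known to act on, were higher in Tmem216-/-. The labels do not say which parts of the embryo were kept, so a difference in tissue and a change in expression cannot be told apart. Of the 20 in the list, 14 rose and 0 fell at a limma adjusted p under 0.05 (0.0975% and 0.00609% of all tested genes), and the median log2 fold change was 3.66, with single genes between 0.09 and 6.13; those 14 are among the 16 genes that rose in all, and the list is no independent evidence. Among 11 known targets of NKX2-5, GATA4, TBX5 or MEF2C, 5 were higher at that threshold (Nppa, Nppb, Myh6, Myl7 and Tnni3, all also in the heart muscle list). All 11 had groups that do not overlap and were higher, against 4.75% of all tested genes. For Nppb and Xirp1 this was fixed once they were tested, since they met the filter through their Tmem216-/- samples alone. Their log2 fold changes lay between 0.70 and 6.13, with a median of 1.82, and this list is no independent evidence either. The range of the targets takes in those of Nkx2-5 (2.00), Gata4 (1.69) and Tbx20 (1.53), and the difference between targets and factors was not tested. The other 6 did not pass: Smyd1, a muscle methyltransferase gene bound by MEF2C, was 17.8, 20.2 and 25.0 TPM in Tmem216-/- and 6.66, 9.97 and 8.37 TPM in wild type (log2 fold change 1.24, adjusted p = 0.149). Gja5, the connexin gene of atria and conduction system, was 13.5, 15.4 and 16.4 TPM in Tmem216-/- and 7.05, 9.71 and 10.1 TPM in wild type (0.70). Slc8a1, the sodium-calcium exchanger gene, was 9.07, 15.7 and 12.2 TPM in Tmem216-/- and 5.47, 5.84 and 6.1 TPM in wild type (0.94).

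In a list of 39 further heart regulators, 36 passed the filter, and 0 passed limma in either direction. At an unadjusted p under 0.05 there were 6, against 4.46% of all tested genes. Of the 36, 23 had a log2 fold change above 0 and 13 below, and the median was 0.10. In 10 the groups do not overlap and were higher, and in 3 they were lower (4.75% and 4.83% of all tested genes). Tbx5, the T-box factor of the atria, left ventricle and forelimb, was 12.7, 15.1 and 18.2 TPM in Tmem216-/- and 2.33, 11.9 and 7.23 TPM in wild type (log2 fold change 1.19, adjusted p = 0.983). Hopx, a homeodomain-only cofactor of heart muscle, was 16.8, 23.6 and 15.1 TPM in Tmem216-/- and 10.9, 10.3 and 11.99 TPM in wild type (0.67, adjusted p = 0.746). Tbx18, a factor of epicardium and sinus horn, had a log2 fold change of 0.61 (adjusted p = 0.788), and Nfatc4 was lower (-0.27, adjusted p = 0.983).

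Relatives of the 10 genes by family lay around the median of all genes. Of 22 relatives 18 were tested, 9 above and 9 below 0, with a median log2 fold change of 0.00 and 0 passing limma in either direction. At an unadjusted p under 0.05 there were 3, against 4.46% of all tested genes. Nkx2-3, an NK2 factor of gut and spleen mesoderm, was 0.89, 1.16 and 0.26 TPM in Tmem216-/- and 4.06, 2.97 and 2.48 TPM in wild type (-1.25, adjusted p = 0.387), and so lay in the opposite direction to Nkx2-5. Nkx2-1, the NK2 factor of forebrain, lung and thyroid, was 10.5, 4 and 3.6 TPM in Tmem216-/- and 12.04, 11.1 and 25.5 TPM in wild type (-1.33, adjusted p = 0.983). Nkx2-6, a near relative of Nkx2-5 in pharynx and early heart, was at or under 0.25 TPM in all 6 samples. Among GATA relatives Gata2, of blood and neural tissue, was 17.2, 15.4 and 17.2 TPM in Tmem216-/- and 27.5, 13.4 and 18.8 TPM in wild type, and Gata1, of red blood cells, was 12.2, 4.68 and 3.58 TPM in Tmem216-/- and 14.5, 18.5 and 3.69 TPM in wild type.

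By likeness of pattern over the 6 samples, the genes nearest to Tbx20 were Gyg (a glycogen primer, Pearson r 0.995), Slc8a1 (0.995) and Sh3bgr (0.989). Nearest to Nkx2-5 were Atp1b1, a sodium pump subunit (0.988), Casq1, a calsequestrin of the sarcoplasmic reticulum (0.986), and Dst (0.985). Sh3bgr was 13.1, 44.2 and 28.9 TPM in Tmem216-/- and 2.84, 3.8 and 2.24 TPM in wild type. Nearest to Gata4 was Rc3h2 (0.996), to Gata5 Fam78a (0.993) and to Gata6 Ankib1 (0.997), whose own log2 fold changes were 0.40, 0.44 and 0.20. Hand1 was nearest to Serpina1c (0.991), a liver-secreted inhibitor gene with 3.09, 1.72 and 2.11 TPM in Tmem216-/- and 25.7, 9.84 and 1.94 TPM in wild type. With 11106 candidate genes and 6 samples that share 2 groups, the nearest match of each of the 10 genes reached at least 0.982, so these values describe the profiles and carry no test.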

How the data were processed

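Total RNA of 3 Tmem216-/- and 3 wild type samples was sequenced from TruSeq libraries, per the labels' protocols. Per the submitters' processing notes, CASAVA 1.8, HISAT2, StringTie and RSEM were used with mm10; the annotation release is not given in the sources used here. The authors deposited TPM per gene. The 2 further columns, which match the group means to within 3.33e-06, were left out.

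The 16411 genes reaching 1 TPM in 3 or more samples were tested as log2(TPM + 1) with limma 3.58.1 in R 4.3.3 (eBayes with trend, two-sided, Benjamini-Hochberg over all tested genes, threshold 0.05). Errors are given as SD over samples or as limma's moderated SE. No count model was used, because TPM keep no read depth. On simulated data with 16411 genes in this comparison, the share called was 52% of 50 genes for a 2-fold change and 88% of 50 for 4-fold. It was 96% of 50 for 8-fold and 94% of 50 for 16-fold, with 10 false among 175 calls. The changed genes were drawn only from those whose mean log2(TPM + 1) was above that of 5 TPM. Nkx2-5, Tbx20, Gata5, Hand1, Irx4 and Myocd lie below that level, so these shares do not cover them. Of the other genes, those named are the 6 of smallest p in each of the regulator and relative lists (1 regulator is not reported here), heart muscle and target genes, up to 4 of largest change in each marker list, and the 3 nearest in pattern to each of the 10 (mean of at least 5 TPM); Gata2, Nkx2-6, Irx3 and Irx5 fall outside this rule and were picked with their values in view. The members, the 19 gene lists and the tests were chosen with earlier results of these data known. Gene positions are from GENCODE M21 and promoters from RefSeq, both GRCm38. Other settings tried were a pseudocount of 0.1 or 5, testing without a filter, a 5 TPM filter, median-of-ratios and quantile scaling, eBayes without trend, a replicate block, a sex covariate from Xist, each sample left out, and, added after the data were seen, a covariate from the liver markers.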

Additional observations from a re-analysis of the deposited data

How the results depend on the processing

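In 0 of 155 pairs of gene and alternative setting did a heart transcription factor gene pass limma; the lowest adjusted p was 0.124 (Gata4 without wild type replicate 2), and between 2 and 5 of the genes tested had an unadjusted p under 0.05 in each setting. Their median log2 fold change of 0.68 was 1.12 with a pseudocount of 0.1, 0.27 with 5, and 0.40 with a filter at 5 TPM, which kept 5 of the 10; with each sample left out it ran from 0.51 to 0.96. The sign turned for Mef2c, whose log2 fold change ran from -0.15 to 0.47 with each sample left out, and for Hand2, from -0.46 to 0.04. Median-of-ratios and quantile scaling moved the median of all genes by 0.008 and 0.013 and turned no sign among the 10.

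Of all genes, 17 changed. With no filter 0 passed limma (1207 at an unadjusted p under 0.05), and with the liver covariate also 0 (963); with each sample left out the count ran from 0 to 27, with 0 without wild type replicate 1, 2 and 1 without wild type replicates 2 and 3, and 27, 9 and 7 without Tmem216-/- replicates 1, 2 and 3. The cause was not tested. Under the liver covariate Gata4 was at 2.25 and Nkx2-5 at 1.51. Same-numbered samples of the groups shared only a number: their deviations from the group means correlated at 0.02, -0.09 and 0.1, and 2 of 6 samples correlated best with their own number. The replicate block gave 25 genes, 0 of them among the 10. Read depth is unknown, so values under 1 TPM, as in wild type Nkx2-5 and Tbx20, have an unknown counting error.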

Other observations

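Neural and facial genes outside the heart described the same samples. Of 5 cortical neuron genes all 5 had a log2 fold change below 0, with a median of -1.03. In limma 0 passed, and 4 had an unadjusted p under 0.05, against 4.46% of all tested genes. Neurod6, a bHLH gene of cortical neurons, was 1.56, 0.43 and 0.5 TPM in Tmem216-/- and 6.2, 2.73 and 3.77 TPM in wild type. Pharyngeal arch genes, which mark tissue where Hand2 is active, gave 5 of 6 tested genes below 0 with a median of -0.15 and 0 passing limma (0 at an unadjusted p under 0.05). Barx1, an arch and stomach homeobox gene, was 16.1, 20.6 and 17.2 TPM in Tmem216-/- and 17.5, 17.2 and 45.0 TPM in wild type. Of 6 sympathetic and enteric neuron genes 3 were above and 3 below 0, with 0 passing limma and 0 at an unadjusted p under 0.05, and Dbh, which makes noradrenaline, was 11.3, 2.23 and 3.47 TPM in Tmem216-/- and 1.22, 3.01 and 1.53 TPM in wild type.

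Endocardium, endothelium and red blood cell genes had no member that passed. The 4 endocardium genes had a median log2 fold change of 0.14, and 0 passed limma (1 at an unadjusted p under 0.05); Npr3, a natriuretic peptide receptor gene of endocardium, was 10.6, 13.8 and 13.1 TPM in Tmem216-/- and 8.67, 10.9 and 8.19 TPM in wild type. All 6 endothelium genes were above 0, with a median of 0.18 and 0 passing limma (1 at an unadjusted p under 0.05). The 6 erythroid genes had a median of -0.20, with 0 passing limma and 0 at an unadjusted p under 0.05.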
